A study of Homo sapiens with 9 samples.

Results

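Complement and acute-phase proteins were followed as a group of 39 listed genes in Huh7 cells, a human hepatocarcinoma line, after siRNA against enzymes of ceramide synthesis. Each gene was read from the probe set annotated to it alone that had the highest mean log2 intensity over all 9 arrays. Such a probe set was found for 36 of the 39 genes, among 19775 genes tested on the array, and ORM2, SAA4 and VTN were left out because they had none. The 36 genes comprised 20 complement factors with their soluble inhibitors, 3 membrane regulators and 13 acute-phase and related plasma proteins. The 3 groups of 3 arrays, given as biological replicates, were Huh7 cells with scramble siRNA, with siRNA against serine palmitoyltransferase (SPTLC123, aimed at its subunits SPTLC1, SPTLC2 and SPTLC3) and with siRNA against DEGS1. All groups received 20 nM siRNA with a lipid reagent and are labelled 72 h after transfection, although the treatment protocol describes a further day in low-serum medium before harvest. The control was a scramble sequence from the same supplier. No label says whether the replicates came from separate transfections, so p-values measure the spread between these samples. The cells are a tumour line grown without other cell types.

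Complement is a cascade of plasma proteins, most of them made in the liver, that marks and lyses microbes. The classical and lectin routes begin with recognition molecules and the proteases bound to them, which activate one another and cleave C4 and C2. The alternative route uses factor B and factor D. All routes meet at C3 and C5 and end in the membrane attack complex of C5b to C9. Soluble inhibitors and the membrane proteins CD46, CD55 and CD59 restrain the cascade on host cells. Acute-phase proteins are plasma proteins whose hepatic synthesis changes in inflammation, mainly under interleukin 6, interleukin 1 and the C/EBP factors. Serine palmitoyltransferase makes the first intermediate of ceramide, and DEGS1 introduces the double bond of ceramide in the last step.

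SPTLC1, SPTLC2 and DEGS1 were lower in every array of the group labelled with their siRNA than in any scramble array, and SPTLC3 was not read here. On the log2 intensity scale SPTLC1 lay between 8.53 and 8.77 after SPTLC123 siRNA and between 10.83 and 11.02 in scramble, SPTLC2 between 4.87 and 5.22 against 5.97 to 6.25, and after DEGS1 siRNA DEGS1 lay between 4.80 and 5.19 against 8.59 to 8.84. The median log2 intensity over all probe sets was 4.86. All 8 hepatocyte markers exceeded it, and all 4 measured macrophage markers lay below it (means 3.54 to 4.84). The summed intensity of the hepatocyte markers was 84606 to 89004 in scramble, 69023 to 74275 after SPTLC123 siRNA and 78579 to 83913 after DEGS1 siRNA, with 3 of the 8 called lower in the first comparison with scramble and 2 in the second. Of 4 stellate and 4 endothelial cell markers none was called against scramble, and 1 and 2 lay above the median. Of 4 cholangiocyte markers, EPCAM and KRT19 rose after SPTLC123 siRNA and none was called after DEGS1 siRNA, and the summed intensity was 2875 to 3600 in scramble, 3504 to 5111 and 3546 to 5153. The part of these shifts in the results was not tested. The 3′ minus 5′ difference of the actin control was 0.41 to 0.56 in 6 arrays and 1.15 to 1.31 in SPTLC123 replicate 3, DEGS1 replicate 2 and DEGS1 replicate 3. These 3 arrays with weak 5′ signal include no scramble array, so values without them stand beside the results they change.

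The promoters of 5 genes are shown. CFB, MBL2 and AHSG are called genes whose windows hold a searched motif, and C4BPB and C4BPA are neighbouring genes that both fell after DEGS1 siRNA. The sequences are the 250 bases before the most upstream RefSeq start on GRCh38.p14, 5′ to 3′ on the strand of the gene, with matches to the STAT motif TTCNNNGAA or the C/EBP motif TTGCNNAA, searched on both strands, in capitals. The stretches of C4BPB and C4BPA shown hold neither motif.
CFB: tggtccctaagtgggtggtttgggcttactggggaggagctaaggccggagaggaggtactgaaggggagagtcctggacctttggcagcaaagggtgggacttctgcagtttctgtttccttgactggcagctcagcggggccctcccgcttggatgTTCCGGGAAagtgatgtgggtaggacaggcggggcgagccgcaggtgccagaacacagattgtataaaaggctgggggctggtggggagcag
MBL2: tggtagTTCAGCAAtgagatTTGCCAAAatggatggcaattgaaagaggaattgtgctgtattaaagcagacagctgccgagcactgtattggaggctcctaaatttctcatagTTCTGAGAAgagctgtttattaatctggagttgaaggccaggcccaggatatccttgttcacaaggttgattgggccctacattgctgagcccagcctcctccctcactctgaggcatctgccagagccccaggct
C4BPB: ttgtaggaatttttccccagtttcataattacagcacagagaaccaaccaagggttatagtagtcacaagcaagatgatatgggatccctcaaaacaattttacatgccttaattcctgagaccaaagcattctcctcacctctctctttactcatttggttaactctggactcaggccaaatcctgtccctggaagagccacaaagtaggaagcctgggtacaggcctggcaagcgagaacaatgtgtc
C4BPA: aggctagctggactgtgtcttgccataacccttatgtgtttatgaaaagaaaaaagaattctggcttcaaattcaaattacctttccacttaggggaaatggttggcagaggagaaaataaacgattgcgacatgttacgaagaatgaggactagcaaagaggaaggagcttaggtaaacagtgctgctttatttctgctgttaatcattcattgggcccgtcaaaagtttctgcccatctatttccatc
AHSG: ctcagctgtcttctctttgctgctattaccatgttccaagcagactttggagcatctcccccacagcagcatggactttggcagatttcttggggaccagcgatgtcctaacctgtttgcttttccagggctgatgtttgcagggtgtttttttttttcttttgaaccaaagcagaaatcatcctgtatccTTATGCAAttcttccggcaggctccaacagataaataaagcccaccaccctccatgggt
These lie at chr6:31945845-31946094 on the plus strand, chr10:52772785-52773034 on the minus strand, chr1:207088610-207088859, chr1:207103983-207104232 and chr3:186612810-186613059, the last 3 on the plus strand. RefSeq windows running from 250 bases before to 50 bases after a start were found for 28 of the 36 genes. C1S, C3, C8G, SERPING1, HP, ITIH2, CP and LBP have no entry. Of the 44 windows of the 28 genes, some of which overlap, 22.7% held the STAT motif, against 7.66% of all 35116 windows, and 18.2% held the C/EBP motif, against 10.5%. The overlapping windows of CD59 and of C4BPB count the same STAT match repeatedly. By gene, 8 of the 28 held the STAT motif and 6 the C/EBP motif in any window. The share by gene over all genes was not computed, and a gene with several windows has more room for a match. Of the 12 called genes with a window, 4 held the STAT motif (C1R, MBL2, CFB and C4BPB) and 3 the C/EBP motif (C1R, MBL2 and AHSG). The match of C4BPB lies in windows of its downstream starts. HAMP, with a STAT match that begins 93 bases before its start, and ITIH4, with one 74 bases before, were not called. A match is a description of letters and not of binding.

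Every member called against scramble was lower. After SPTLC123 siRNA 10 of the 36 genes fell and none rose (limma with Benjamini-Hochberg adjustment over all 19775 genes, adjusted p under 0.05), where 9.94% of all genes were called, 5.31% higher and 4.63% lower. Higher genes made up 53.5% of those calls, and 65.3% after median centring of the arrays. After DEGS1 siRNA 9 of 36 fell and none rose, where 9.7% of all genes were called, 4.66% higher and 5.04% lower. The median log2 change over the 36 was -0.14 after SPTLC123 siRNA and -0.20 after DEGS1 siRNA, against -0.03 and -0.01 over all genes. Both comparisons share the 3 scramble arrays. The arrays did not overlap in 14 of the 36 genes after SPTLC123 siRNA, 13 of them lower. Among all genes 28.9% did not overlap in either direction, and 15.4% were lower without overlap. After DEGS1 siRNA 14 of the 36 did not overlap, all lower, where the shares of all genes were 26.3% and 13.7%. In bulk RNA, fewer cells of a kind and less RNA per cell cannot be told apart. Without the 3 arrays of weak 5′ signal 6 members were called after SPTLC123 siRNA and 1 after DEGS1 siRNA, where a single DEGS1 array is left and takes its spread from the remaining groups. The count after SPTLC123 siRNA was 6 without scramble replicate 1 or SPTLC123 replicate 3, and 5 without SPTLC123 replicate 1. Without scramble replicate 2 it was 7, of which 6 were lower and CFD was higher (log2 change 0.48, adjusted p = 0.0492). After DEGS1 siRNA it was 5 without scramble replicate 2, 4 without DEGS1 replicate 2 or 3, and 14 without DEGS1 replicate 1.

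By class, 6 of 20 complement factors, none of 3 membrane regulators and 4 of 13 acute-phase and related proteins fell after SPTLC123 siRNA, with median log2 changes of -0.05, -0.23 and -0.21. After DEGS1 siRNA 5 of 20, 1 of 3 and 3 of 13 fell, with medians of -0.09, -0.47 and -0.21. Both medians of the membrane regulators are the values of CD59, whose sign turned in both comparisons without the arrays of weak 5′ signal. Of the 36 genes 25 exceeded the array-wide median, where a change can be read best. Of those 25, 10 were called after SPTLC123 siRNA and 8 after DEGS1 siRNA, and among all 12646 genes above that median 14.7% and 14.4% were called. The other 11 were MASP2, MBL2, CFP, C6, C8G, C9, CRP, ITIH1, ITIH3, FETUB and HAMP. MBL2 was the only one of these 11 called in any comparison.

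**Figure D1:**
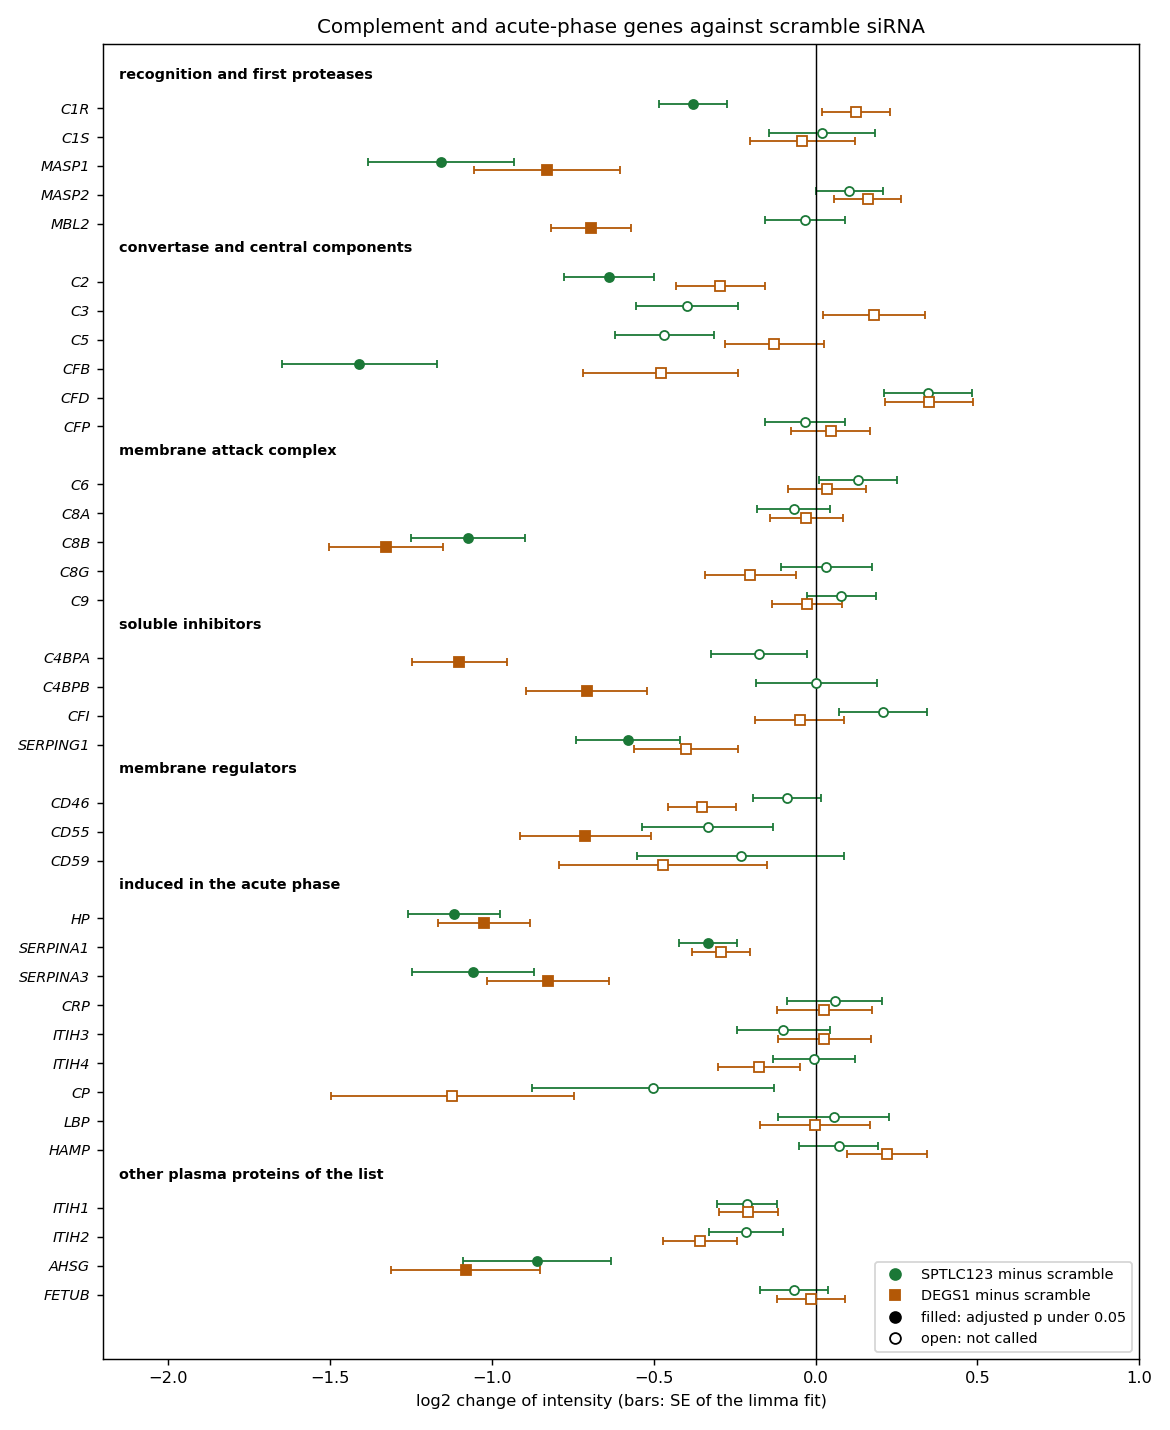
Log2 change of intensity (horizontal axis) for the 36 genes after SPTLC123 siRNA (green circles) and DEGS1 siRNA (orange squares) against scramble, with the SE of the limma fit, ordered by role. Filled points passed an adjusted p of 0.05, and every filled point lies left of 0, from -1.41 (CFB) to -0.33 (SERPINA1).

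Among the recognition molecules and first proteases, MASP1 fell after both treatments, MBL2 after DEGS1 siRNA and C1R after SPTLC123 siRNA. MASP1 encodes the protease that, bound to mannose-binding lectin, starts the lectin route. Its log2 intensity was 8.77, 9.62 and 8.79 in scramble, 7.93, 8.11 and 7.68 after SPTLC123 siRNA and 8.50, 8.28 and 7.92 after DEGS1 siRNA. Scramble replicate 2 was the highest array, and neither treated group overlapped scramble. The change was -1.16 ± 0.23 (SE, adjusted p = 0.00803) after SPTLC123 siRNA, which left 44.9% of the signal, and -0.83 ± 0.23 (adjusted p = 0.0418) after DEGS1 siRNA. The second of these calls ended in 11 of 20 alternative settings, among them the fit without scramble replicate 2 (log2 change -0.55) and the actin covariate. All 4 other MASP1 probe sets were also lower in both comparisons, and in a fit over every probe set 2 of them were called after SPTLC123 siRNA and 1 after DEGS1 siRNA. The mean over all 5 gave -0.64 (adjusted p = 0.0115) after SPTLC123 siRNA.

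MBL2 encodes the mannose-binding lectin that recognises sugars on microbes. It read 4.42, 4.52 and 4.45 in scramble, 4.45, 4.63 and 4.21 after SPTLC123 siRNA and 3.81, 3.58 and 3.92 after DEGS1 siRNA. All DEGS1 arrays lay below all others, and the other groups overlapped. The gene fell by 0.69 ± 0.12 after DEGS1 siRNA (adjusted p = 0.00603) and did not pass after SPTLC123 siRNA, at -0.03 ± 0.12 (adjusted p = 0.912). DEGS1 differed from SPTLC123 by -0.66 ± 0.12 (adjusted p = 0.00751). Every group mean of MBL2 lies under the array-wide median, where the size of a change is poorly measured. Without the arrays of weak 5′ signal the change against scramble was -0.65 (adjusted p = 0.0615), and that against SPTLC123 was -0.73 (adjusted p = 0.0478).

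C1R, the protease that activates C1S in the first complex of the classical route, was lowest after SPTLC123 siRNA. It read 5.96, 5.98 and 6.10 in scramble, 5.69, 5.71 and 5.50 after SPTLC123 siRNA and 6.30, 6.00 and 6.12 after DEGS1 siRNA. The SPTLC123 arrays were the lowest 3 of the 9. The change of -0.38 ± 0.10 against scramble (adjusted p = 0.043) lost its call in 13 of 20 settings, including each omission of a scramble or SPTLC123 array. The difference of DEGS1 from SPTLC123, 0.50 ± 0.10 (adjusted p = 0.0129), was lost in 1 of 20, without the arrays of weak 5′ signal. C1S lay between 6.56 and 7.09 over all 9 arrays and differed from scramble by 0.02 ± 0.16 and -0.04 ± 0.16. MASP2, the lectin-route protease that cleaves C4, lay between 4.49 and 4.84 and was not called.

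In the convertases and central components the decreases that were called were those after SPTLC123 siRNA. CFB encodes factor B, which carries the protease of the alternative C3 convertase. CFB read 6.22, 7.27 and 6.12 in scramble, 5.06, 5.07 and 5.25 after SPTLC123 siRNA and 6.15, 5.96 and 6.06 after DEGS1 siRNA. The SPTLC123 arrays lay below all others, while DEGS1 overlapped scramble. CFB fell by 1.41 ± 0.24 (adjusted p = 0.00383), to 37.7% of the scramble signal, which was the largest change of any member against scramble. Scramble replicate 2 was highest, and without it the change was -1.04 (adjusted p = 0.000504). The mean over both CFB probe sets gave -0.84 (adjusted p = 0.0132). After DEGS1 siRNA the difference was -0.48 ± 0.24 (adjusted p = 0.25). DEGS1 exceeded SPTLC123 by 0.93 ± 0.24 (adjusted p = 0.0351), a call lost in 8 of 20 settings. The dimmer probe set of CFB had the same sign in each comparison and was not called.

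C2, which forms the classical convertase together with C4, read 7.51, 7.95 and 7.50 in scramble, 6.82, 7.05 and 7.18 after SPTLC123 siRNA and 7.25, 7.45 and 7.38 after DEGS1 siRNA. Every array of both treatments lay below every scramble array. C2 fell by 0.64 ± 0.14 after SPTLC123 siRNA (adjusted p = 0.0143), a call lost without SPTLC123 replicate 1 (adjusted p = 0.0647). After DEGS1 siRNA C2 differed by -0.29 ± 0.14 (adjusted p = 0.222). The treatments were not called apart, at 0.34 ± 0.14 (adjusted p = 0.166). 

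C3, the component on which all routes converge, read 11.55, 11.94 and 11.55 in scramble, 11.02, 11.32 and 11.50 after SPTLC123 siRNA and 11.62, 11.92 and 12.03 after DEGS1 siRNA. The SPTLC123 arrays lay below all scramble arrays, but neither difference from scramble was called, at -0.40 ± 0.16 (adjusted p = 0.15) and 0.18 ± 0.16 (adjusted p = 0.544). The difference between the treatments was 0.58 ± 0.16, or 1.49-fold higher after DEGS1 siRNA (adjusted p = 0.0441). This call was lost in 11 of 20 settings. C5, the precursor of C5a and C5b, differed from scramble by -0.47 ± 0.15 after SPTLC123 siRNA (adjusted p = 0.0819), with no overlap, and by -0.13 ± 0.15 after DEGS1 siRNA.

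CFD, factor D, which cleaves factor B, differed by 0.35 ± 0.14 in each comparison against scramble (adjusted p = 0.148 and 0.138), with the SPTLC123 arrays at 7.80 to 7.89 above scramble at 7.23 to 7.77. CFP, the stabiliser properdin, lay between 3.53 and 3.91. All 6 genes of this role had a higher mean after DEGS1 than after SPTLC123 siRNA, by 0.00 (CFD) to 0.93 on the log2 scale. Their median difference was 0.34, against 0.01 over all genes. Of the 6, CFB and C3 were called, where 8.66% of all genes were called between the treatments, 3.7% higher after DEGS1 siRNA. Both calls were lost in several alternative settings, and neither remained without the arrays of weak 5′ signal.

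Of the 5 genes of the membrane attack complex only the beta chain of C8 was called. C8B read 6.35, 7.24 and 6.70 in scramble, 5.68, 5.66 and 5.73 after SPTLC123 siRNA and 5.52, 5.39 and 5.40 after DEGS1 siRNA. The groups formed separate steps, with every DEGS1 array below every SPTLC123 array and both below scramble, whose own arrays spread most. The decrease was 1.07 ± 0.18 after SPTLC123 siRNA (adjusted p = 0.00313) and 1.33 ± 0.18 after DEGS1 siRNA (adjusted p = 0.00124), which left 47.6% and 39.9% of the signal. The treatments themselves were not called apart, at -0.25 ± 0.18 (adjusted p = 0.437). The first call held in all 20 settings, and the second was lost only without the arrays of weak 5′ signal (log2 change -1.24, adjusted p = 0.0899). C8A, the alpha chain with which C8B assembles, read 6.73, 7.01 and 6.80, then 6.60, 6.93 and 6.80, then 6.74, 6.84 and 6.88. Its differences from scramble were -0.07 ± 0.11 and -0.03 ± 0.11, with 95% intervals of -0.31 to 0.18 and -0.27 to 0.22. The gamma chain C8G, which differed by 0.03 ± 0.14 and -0.20 ± 0.14, and C6 and C9 lay under the array-wide median and were not called. C9, the pore-forming component, read 3.06, 3.09 and 2.98 in scramble, 3.18, 2.97 and 3.22 after SPTLC123 siRNA and 2.83, 3.11 and 3.11 after DEGS1 siRNA.

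Of the 4 soluble inhibitors, SERPING1 fell after SPTLC123 siRNA and C4BPA and C4BPB fell after DEGS1 siRNA. C4BPA and C4BPB encode the alpha and beta chains of C4b-binding protein, which takes apart the classical convertase. C4BPA read 8.86, 9.16 and 9.09 in scramble, 8.74, 9.06 and 8.78 after SPTLC123 siRNA and 8.23, 7.69 and 7.89 after DEGS1 siRNA. C4BPB read 8.01, 8.22 and 7.76, then 8.15, 8.26 and 7.59, then 7.57, 7.13 and 7.18. For each chain all DEGS1 arrays lay below all other arrays, while scramble and SPTLC123 overlapped. C4BPA fell by 1.10 ± 0.15 after DEGS1 siRNA (adjusted p = 0.00132), to 46.7% of scramble, and C4BPB by 0.71 ± 0.19 (adjusted p = 0.0382), to 61.3%. After SPTLC123 siRNA the differences were -0.17 ± 0.15 and 0.00 ± 0.19 (adjusted p = 0.548 and 0.996). DEGS1 differed from SPTLC123 by -0.93 ± 0.15 for C4BPA (adjusted p = 0.00303) and -0.71 ± 0.19 for C4BPB (adjusted p = 0.0393). In each chain DEGS1 replicate 1, with normal 5′ signal, was the least reduced DEGS1 array, and without the arrays of weak 5′ signal the changes against scramble were -0.80 (adjusted p = 0.0786) and -0.43 (adjusted p = 0.364). With the actin covariate C4BPA stayed called at -0.91 (adjusted p = 0.00367) and C4BPB did not, at -0.42 (adjusted p = 0.171).

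SERPING1, the C1 inhibitor that inactivates C1R, C1S and the MASP proteases, read 5.90, 6.02 and 5.53 in scramble, 5.25, 5.36 and 5.11 after SPTLC123 siRNA and 5.51, 5.65 and 5.10 after DEGS1 siRNA. It fell by 0.58 ± 0.16 after SPTLC123 siRNA (adjusted p = 0.0435), a call lost in 11 of 20 settings. After DEGS1 siRNA SERPING1 differed by -0.40 ± 0.16 (adjusted p = 0.149). The treatments were not called apart, at 0.18 ± 0.16 (adjusted p = 0.561). CFI, the protease factor I that cleaves C3b and C4b, lay between 9.66 and 10.19 in all arrays and was not called in any comparison. Its other probe set read 8.26 to 9.43 in the arrays of weak 5′ signal and 9.68 to 10.36 in the other 6.

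**Figure D2:**
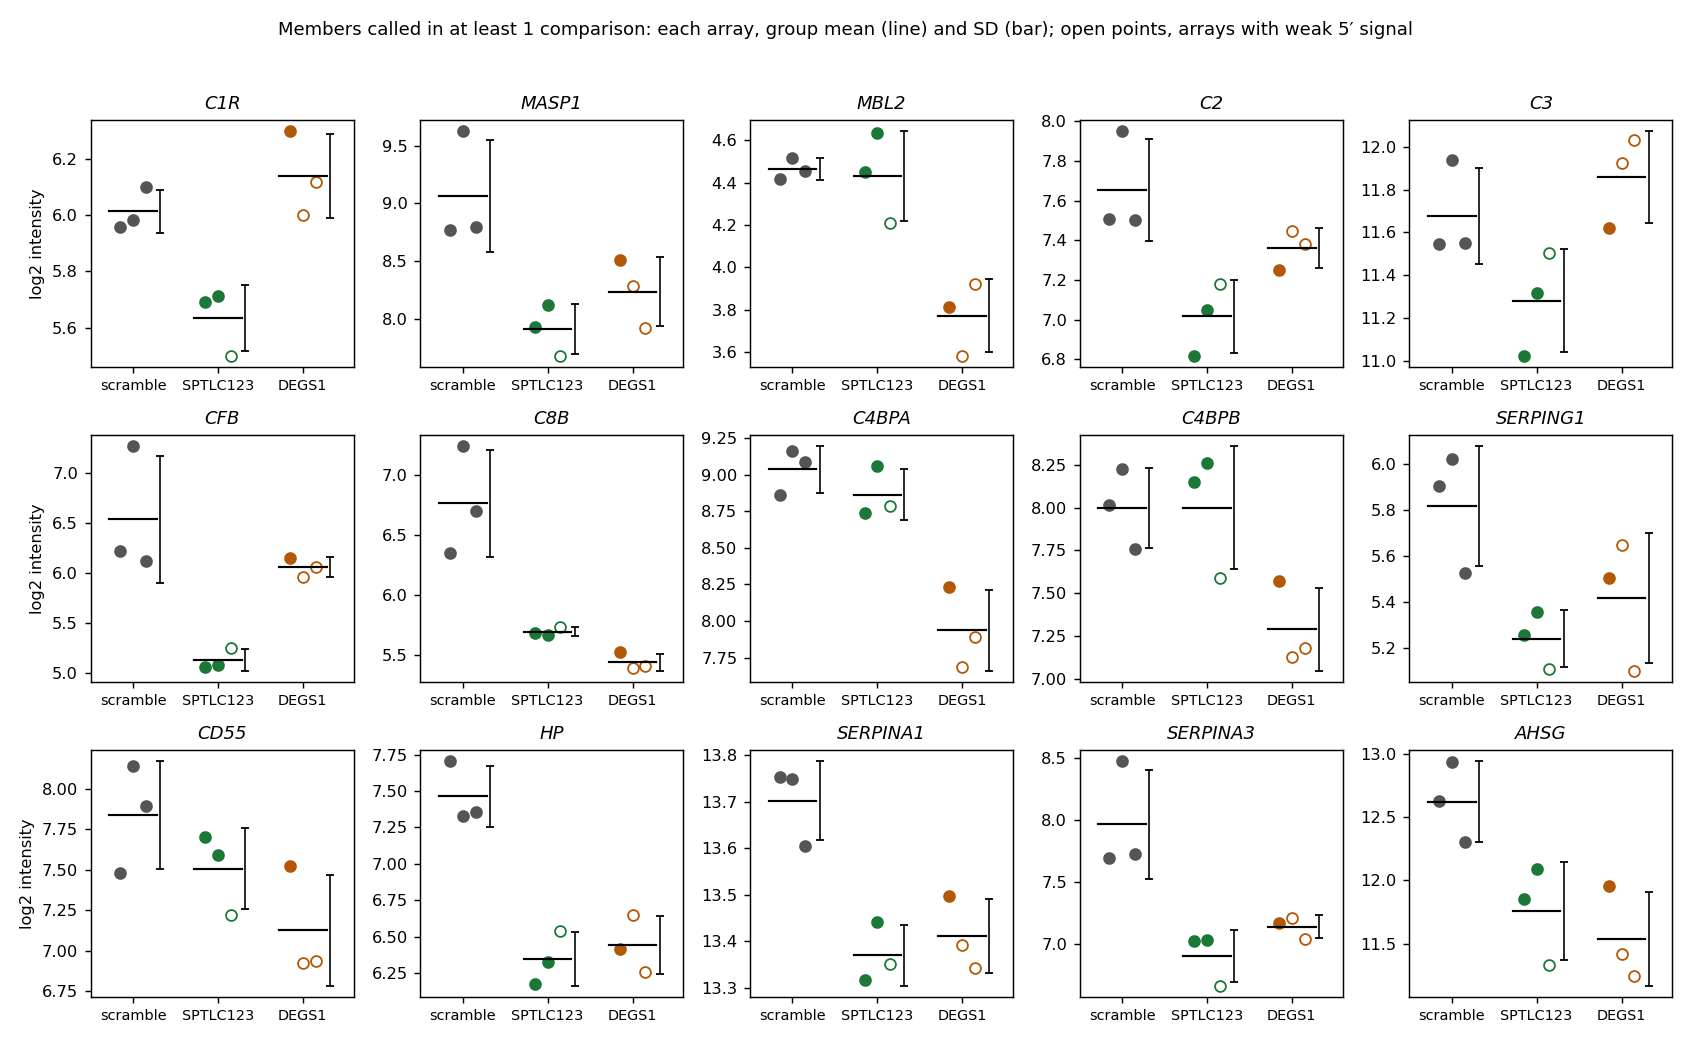
Log2 intensity (vertical axis, a scale of its own in each panel) of the 15 genes called in at least 1 comparison, with 1 point per array, the group mean as a line and the SD over 3 arrays as a bar. Open points are the 3 arrays with weak 5′ signal; C8B steps down from scramble (6.35 to 7.24) to SPTLC123 (5.66 to 5.73) and DEGS1 (5.39 to 5.52), while C4BPA and MBL2 are low in the DEGS1 arrays and CFB in the SPTLC123 arrays.

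CD55 and CD59 were lowest in the arrays of weak 5′ signal. CD55, or decay-accelerating factor, which breaks up C3 convertases, read 7.48, 8.14 and 7.89 in scramble, 7.70, 7.59 and 7.22 after SPTLC123 siRNA and 7.52, 6.92 and 6.93 after DEGS1 siRNA. The low arrays were the 3 with weak 5′ signal, at 6.92 to 7.22 against 7.48 to 8.14 in the other 6, and DEGS1 replicate 1 overlapped scramble. CD55 was the only membrane regulator called, by -0.71 ± 0.20 after DEGS1 siRNA (adjusted p = 0.0497), and the call was lost in 12 of 20 settings. Without the arrays of weak 5′ signal the change was -0.32 (adjusted p = 0.639). Its other 2 probe sets differed by -0.47 and -0.75, and the second was called when all probe sets were fitted with limma (adjusted p = 0.0367).

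CD59, which stops C9 from joining the attack complex, read 8.84, 8.92 and 8.77 in scramble, 9.02, 8.89 and 7.93 after SPTLC123 siRNA and 9.14, 8.02 and 7.96 after DEGS1 siRNA. The arrays of weak 5′ signal read 7.93 to 8.02 and the other 6 read 8.77 to 9.14, and no comparison was called. Without the 3 arrays CD59 differed from scramble by 0.11 after SPTLC123 siRNA and by 0.30 after DEGS1 siRNA, turning the sign of -0.23 and -0.47 with all arrays. Of its 5 probe sets, 3 were lower in each of the 3 arrays than in any other. A further probe set, with a mean of 6.75, went the other way. It read 6.37 to 6.70 in scramble, 6.80 to 6.97 after SPTLC123 siRNA and 6.80 to 6.92 after DEGS1 siRNA. Its differences from scramble, 0.36 and 0.37, were not called. The dimmest probe set, with a mean of 3.17, differed by -0.22 and -0.04 and was not called.

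CD46, the cofactor with which factor I cleaves C3b, read 11.58, 11.50 and 11.35 in scramble, 11.36, 11.37 and 11.45 after SPTLC123 siRNA and 11.18, 11.25 and 10.95 after DEGS1 siRNA. Every DEGS1 array lay below every scramble array, at a difference of -0.35 ± 0.10 (adjusted p = 0.0589), and the gene was not called after SPTLC123 siRNA at -0.09 ± 0.10. Its other 2 probe sets read 7.97 to 8.69 and 8.29 to 8.81 in the arrays of weak 5′ signal, against 9.96 to 10.13 and 9.95 to 10.20 elsewhere. Over the probe sets used, 4 of the 36 genes (CD55, CD59, CP and AHSG) were lower in all 3 of these arrays than in the other 6, and 7.74% of all genes were.

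**Figure D3:**
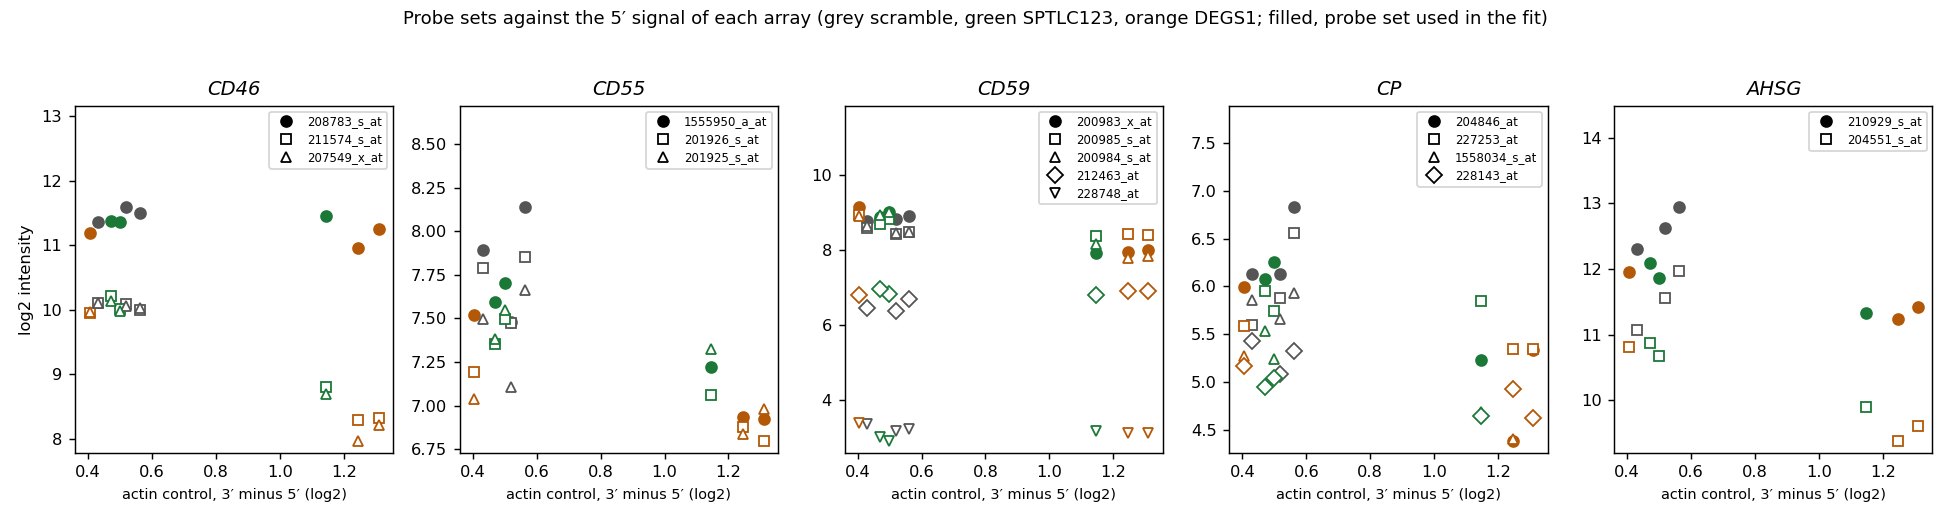
Log2 intensity (vertical axis) of every probe set of CD46, CD55, CD59, CP and AHSG in the 9 arrays against the 3′ minus 5′ difference of the actin control (horizontal axis, log2), coloured by group, with the probe set used in the fit filled. The 3 arrays at 1.15 to 1.31 are lower than the 6 at 0.41 to 0.56 in at least 2 probe sets of each gene, by the most in 2 probe sets of CD46.

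Among proteins induced in the acute phase, haptoglobin and the antichymotrypsin SERPINA3 fell after both treatments. HP encodes haptoglobin, which binds free haemoglobin, and has 1 probe set. It read 7.70, 7.33 and 7.35 in scramble, 6.17, 6.33 and 6.54 after SPTLC123 siRNA and 6.41, 6.65 and 6.26 after DEGS1 siRNA. The treated groups overlapped each other and lay wholly below scramble. HP fell by 1.12 ± 0.14 after SPTLC123 siRNA (adjusted p = 0.000638) and by 1.02 ± 0.14 after DEGS1 siRNA (adjusted p = 0.00162), which left 46.2% and 49.2% of the signal. The decrease held in all 20 alternative settings of each comparison, from -1.21 to -0.99 after SPTLC123 siRNA and from -1.13 to -0.90 after DEGS1 siRNA. HP was the only member still called after DEGS1 siRNA without the arrays of weak 5′ signal (log2 change -1.05, adjusted p = 0.0323). The treatments differed from each other by 0.09 ± 0.14 (95% interval -0.22 to 0.40, adjusted p = 0.757).

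SERPINA3, which inhibits neutrophil proteases, read 7.70, 8.47 and 7.72 in scramble, 7.02, 7.03 and 6.67 after SPTLC123 siRNA and 7.17, 7.21 and 7.04 after DEGS1 siRNA. Both treated groups lay below all scramble arrays, of which replicate 2 was again the highest. The gene fell by 1.06 ± 0.19 after SPTLC123 siRNA (adjusted p = 0.00516), called in all 20 settings, and by 0.83 ± 0.19 after DEGS1 siRNA (adjusted p = 0.02), called in 15 of 20 and lost without DEGS1 replicate 2 or 3. SERPINA1, or alpha-1 antitrypsin, the main inhibitor of neutrophil elastase, read 13.75, 13.75 and 13.60 in scramble, 13.32, 13.44 and 13.35 after SPTLC123 siRNA and 13.50, 13.39 and 13.34 after DEGS1 siRNA. It fell by 0.33 ± 0.09 after SPTLC123 siRNA (adjusted p = 0.0395), lost in 13 of 20 settings, and differed by -0.29 ± 0.09 after DEGS1 siRNA (adjusted p = 0.0666). All treated arrays lay below all scramble arrays.

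CP, the copper oxidase ceruloplasmin, read 6.13, 6.83 and 6.13 in scramble, 6.26, 6.08 and 5.24 after SPTLC123 siRNA and 5.99, 5.34 and 4.39 after DEGS1 siRNA. The 3 lowest arrays were those of weak 5′ signal. The difference after DEGS1 siRNA was -1.12 ± 0.37 (adjusted p = 0.0864), and -0.37 without these arrays. CRP, ITIH3, ITIH4, LBP and HAMP were not called in any comparison. CRP, C-reactive protein, read 4.10, 3.71 and 4.06 in scramble, 4.16, 3.70 and 4.19 after SPTLC123 siRNA and 4.05, 3.87 and 4.03 after DEGS1 siRNA. HAMP encodes hepcidin, the hormone that limits iron export. It lay between 3.79 and 4.32 in all arrays, under the array-wide median, and differed from scramble by 0.07 ± 0.12 and 0.22 ± 0.12. LBP, which carries bacterial lipopolysaccharide, lay between 4.85 and 5.58.

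Among the other plasma proteins AHSG fell. AHSG encodes fetuin-A, a carrier that blocks mineral deposition and falls in the acute phase. It read 12.62, 12.94 and 12.30 in scramble, 11.86, 12.09 and 11.34 after SPTLC123 siRNA and 11.96, 11.42 and 11.24 after DEGS1 siRNA. All treated arrays lay below all scramble arrays, and the 3 lowest were those of weak 5′ signal. The decrease was 0.86 ± 0.23 after SPTLC123 siRNA (adjusted p = 0.0373) and 1.08 ± 0.23 after DEGS1 siRNA (adjusted p = 0.0144). Without the arrays of weak 5′ signal these were -0.65 (adjusted p = 0.0669) and -0.67 (adjusted p = 0.248). The second probe set of AHSG differed by -1.05 and -1.60 and was not called. ITIH1 and ITIH2 encode heavy chains of inter-alpha-trypsin inhibitor, which bind hyaluronan. ITIH2 lay at 12.71 ± 0.13 (SD, n = 3) in scramble and differed by -0.22 ± 0.11 (adjusted p = 0.295) and -0.36 ± 0.11 (adjusted p = 0.0762). ITIH1 differed by -0.21 ± 0.09 in each comparison, under the array-wide median. FETUB, or fetuin-B, lay between 3.94 and 4.29.

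Between the treatments, 6 of the 36 genes differed, where 8.66% of all genes did, 3.7% higher and 4.96% lower after DEGS1 siRNA. Higher genes made up 42.7% of those calls, and 31.7% after median centring. C1R, C3 and CFB were higher after DEGS1 than after SPTLC123 siRNA, and MBL2, C4BPA and C4BPB were lower. All 6 are complement factors, and none of the 3 membrane regulators or 13 acute-phase and related proteins was called. Outside the members, 3 of 17 further acute-phase plasma proteins (17.6%) and 3 of 29 further complement genes (10.3%) were called in this comparison. Of the acute-phase proteins, SERPINF2 and FGB were higher after DEGS1 siRNA and ORM1 was lower. Without the arrays of weak 5′ signal MBL2 alone was called, and leaving out SPTLC123 replicate 1 or 2, or DEGS1 replicate 2 or 3, left 3 calls each. The median difference over the 36 genes was -0.01, against 0.01 over all genes.

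Several members are neighbours on a chromosome, by the order of protein-coding genes in RefSeq. On chromosome 1, C4BPB and C4BPA lie side by side, followed directly by CD55 and then, after CR2, CR1 and CR1L, by CD46. These 4 members differed from scramble by -0.71, -1.10, -0.71 and -0.35 after DEGS1 siRNA and by 0.00, -0.17, -0.33 and -0.09 after SPTLC123 siRNA. C4BPB, C4BPA and CD55 were called after DEGS1 siRNA and CD46 was not (limma adjusted p = 0.0589). Without the arrays of weak 5′ signal the 4 changes after DEGS1 siRNA were -0.43, -0.80, -0.32 and -0.30. CR2 and CR1, which lie between CD55 and CD46 and are receptors of C3 fragments on lymphocytes, had log2 means of 3.31 and 4.45 in scramble and were not called. C8A and C8B also adjoin on chromosome 1, where C8B fell and C8A was not called. C2 and CFB on chromosome 6, with only ZBTB12 listed between them in that order, both fell after SPTLC123 siRNA. AHSG and FETUB adjoin on chromosome 3, and FETUB was not called. On the same chromosome ITIH1, ITIH3 and ITIH4 adjoin, and none of them was called. C1S and C1R adjoin on chromosome 12, where C1R fell after SPTLC123 siRNA and C1S was not called. 

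Other genes of the pathways were read from lists chosen with the members. Of 29 measured further complement genes, 2 fell (6.9%) and none rose after SPTLC123 siRNA, and 3 fell (10.3%) and none rose after DEGS1 siRNA, against 9.94% and 9.7% of all genes called in either direction. These shares lie close to those of all genes called in either direction. Of all genes, 4.63% and 5.04% were called lower. Without the arrays of weak 5′ signal, a choice added after the data were seen, 1 and none stayed called. CLU, clusterin, which blocks the attack complex in plasma, read 12.87, 12.89 and 12.89 in scramble, 11.47, 11.99 and 11.67 after SPTLC123 siRNA and 13.01, 12.82 and 12.86 after DEGS1 siRNA. It fell by 1.17 ± 0.12 after SPTLC123 siRNA (adjusted p = 0.000211) and differed by 0.02 ± 0.12 after DEGS1 siRNA (adjusted p = 0.957). The treatments differed by 1.19 ± 0.12 (adjusted p = 0.000232). PTX3, a long pentraxin, fell by 0.62 ± 0.13 after DEGS1 siRNA (adjusted p = 0.0127), under the array-wide median. Its call was lost without DEGS1 replicate 2 or 3.

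Of 17 further acute-phase plasma proteins 10 fell after SPTLC123 siRNA and 6 after DEGS1 siRNA, and none rose, with median log2 changes of -0.46 and -0.25. These are 58.8% and 35.3% of the list, against the 4.63% and 5.04% of all genes that fell, and without the arrays of weak 5′ signal 7 and 2 stayed called. Of the 17 genes 16 exceeded the array-wide median, above which 14.7% and 14.4% of all genes were called in either direction. The list also holds TTR, TF, RBP4 and ALB, which fall in the acute phase. TTR, TF and RBP4 were called after SPTLC123 siRNA and TTR after DEGS1 siRNA. ALB, TF, TTR and FGB were also counted among the hepatocyte markers. ORM1, alpha-1 acid glycoprotein, read 11.65, 11.54 and 11.58 in scramble, 11.10, 11.25 and 11.03 after SPTLC123 siRNA and 10.47, 10.21 and 10.34 after DEGS1 siRNA. The 3 groups did not overlap. ORM1 fell by 0.46 ± 0.10 (adjusted p = 0.0136) and 1.25 ± 0.10 (adjusted p = 5.85e-05), and DEGS1 differed from SPTLC123 by -0.79 ± 0.10 (adjusted p = 0.000772). Its probe set may share signal with the close paralog ORM2. SERPINF2, the plasmin inhibitor, fell by 0.82 ± 0.10 after SPTLC123 siRNA (adjusted p = 0.000521) and differed by -0.05 ± 0.10 after DEGS1 siRNA (adjusted p = 0.816).

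Among 25 genes of interleukin 6 and interleukin 1 signalling and C/EBP factors, 3 rose and 4 fell after SPTLC123 siRNA, and 3 rose and 2 fell after DEGS1 siRNA. Of these calls 3 and 1 remained without the arrays of weak 5′ signal. With all arrays the calls made up 28% and 20% of the list, against 9.94% and 9.7% of all genes. Of the 25 genes 24 exceeded the array-wide median, above which 14.7% and 14.4% of all genes were called. IL6ST, the signalling receptor gp130 through which interleukin 6 acts, read 10.94, 10.76 and 10.97 in scramble, 10.60, 10.61 and 10.71 after SPTLC123 siRNA and 9.61, 9.48 and 9.41 after DEGS1 siRNA. It fell by 1.39 ± 0.10 after DEGS1 siRNA (adjusted p = 2.62e-05), called in all 20 settings, and differed by -0.25 ± 0.10 after SPTLC123 siRNA (adjusted p = 0.131). IL1R1, the interleukin 1 receptor, rose by 0.78 ± 0.10 after SPTLC123 siRNA (adjusted p = 0.000746) and differed by 0.15 ± 0.10 after DEGS1 siRNA (adjusted p = 0.42). The mean of its probe sets gave 0.52 for the first value and was not called (adjusted p = 0.121).

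Of 17 genes of BMP signalling and iron sensing that control hepcidin, 4 rose and none fell after SPTLC123 siRNA, and 2 rose and 3 fell after DEGS1 siRNA. Of these calls 2 and none remained without the arrays of weak 5′ signal. Over all 9 arrays 23.5% and 29.4% of the list were called, against 9.94% and 9.7% of all genes. Of the 17 genes 16 exceeded the array-wide median, above which 14.7% and 14.4% of all genes were called. SMAD5 rose by 0.86 ± 0.11 (adjusted p = 0.000746) and 0.53 ± 0.11 (adjusted p = 0.0143), the second lost in 6 of 20 settings, among them the fits without scramble replicate 3 or DEGS1 replicate 2 or 3. The mean of its probe sets gave 0.21 (adjusted p = 0.307) after DEGS1 siRNA. SMAD1, which like SMAD5 carries the BMP signal, fell by 0.86 ± 0.15 after DEGS1 siRNA (adjusted p = 0.0056) and differed by 0.27 ± 0.15 after SPTLC123 siRNA (adjusted p = 0.33). The change of SMAD1 was -0.54 without the arrays of weak 5′ signal (adjusted p = 0.0916). Of 27 genes for the glycosylphosphatidylinositol anchor, which holds CD55 and CD59 in the membrane, 2 fell after SPTLC123 siRNA (7.41%) and 6 after DEGS1 siRNA (22.2%), against 4.63% and 5.04% of all genes, and none rose. All 27 exceeded the array-wide median, above which 14.7% and 14.4% of all genes were called in either direction. Of the 6, PIGX, PIGK, PIGH and DPM1 were lower in all 3 arrays of weak 5′ signal than in the other 6 arrays, as were 9 of the 27 genes against 7.74% of all genes. PIGX, which takes part in adding the first mannose of the anchor and was chosen after its values were seen, read 8.32, 8.28 and 8.27 in scramble, 8.06, 8.05 and 7.19 after SPTLC123 siRNA and 7.89, 6.65 and 6.46 after DEGS1 siRNA. Without these arrays its change after DEGS1 siRNA was -0.40, against -1.29 with them, and none of the 6 stayed called. PIGZ and PGAP2 of this list were higher after DEGS1 than after SPTLC123 siRNA, by 0.88 ± 0.18 (adjusted p = 0.0134) and 0.48 ± 0.10 (adjusted p = 0.0158), and neither was called against scramble. Neither difference was called without the arrays of weak 5′ signal (adjusted p = 0.286 and 0.356).

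**Figure D4:**
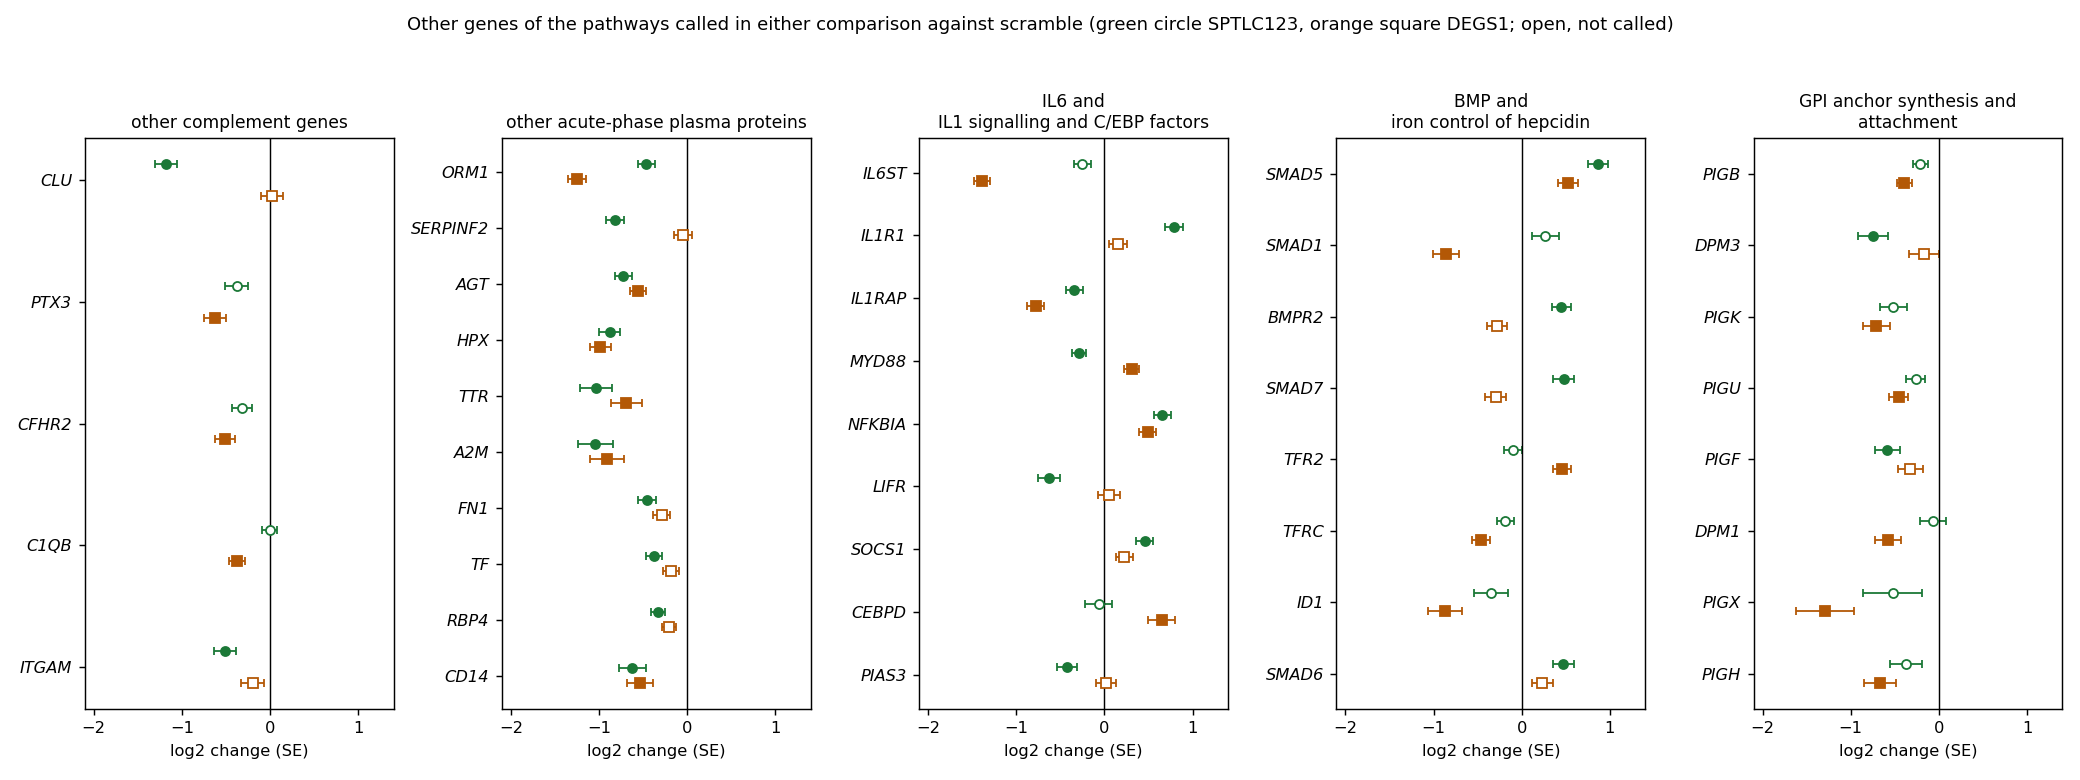
Log2 change (horizontal axis, with the SE of the limma fit) of the genes of each further list that were called in either comparison against scramble, green circles for SPTLC123 and orange squares for DEGS1, open where not called. CLU lies at -1.17 after SPTLC123 siRNA and 0.02 after DEGS1 siRNA, and IL6ST at -0.25 and -1.39.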

How the data were processed

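RNA of 9 Huh7 samples, 3 per group, was measured on Affymetrix arrays of 54675 probe sets. The authors deposited a normalized linear intensity per probe set and array, and the submitters' processing notes list limma 2.14.7, GCRMA 2.12.1 and RMA without saying which step each performed. The log2 of each deposited intensity was taken with no pseudocount, since no value was 0 or below. Control probe sets (62) and those listed with several genes (1801) or with none (11721) were left out. Each of 19775 genes was read from its probe set of highest mean log2 intensity. Limma 3.58.1 in R 4.3.3 (lmFit, eBayes) fitted 1 mean per group over all 9 arrays with 6 residual degrees of freedom. Benjamini-Hochberg adjustment of the p-values ran over all 19775 genes, and an adjusted p under 0.05 was called. The procedure was tested on simulated data.

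The number of arrays limits the precision. The members, the further lists and the tests were chosen with earlier results of these data known. Values in every array are given for each called member and for the highest and lowest member of each class, and each further list is represented by the 2 genes of smallest adjusted p. Motifs were searched in RefSeq windows of GRCh38.p14. Alternatives were the choice of probe set, the omission of dim genes, median centring, quantile normalization, the variance model, the groups fitted, array weights (statmod 1.5.0), a replicate block, the actin difference as covariate and the omission of arrays. Replicate numbers are shared across groups, but correlations of same-numbered arrays' deviations ran from -0.28 to 0.54, so the fit was not paired. Slide and scan batches are not given in the sources used here and were not tested.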

Additional observations from a re-analysis of the deposited data

How the results depend on the processing

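Each comparison was refitted under 20 alternatives. Among the members' log2 changes, 1984 stayed on their side of the threshold, 125 lost a call and 21 gained one. Of the 1984, 140 that were called in neither fit changed sign, and no called value did. In all alternatives that tested them, 5 of the 10 members called after SPTLC123 siRNA stayed called (MASP1, CFB, C8B, HP and SERPINA3), as did 1 of 9 after DEGS1 siRNA (HP) and 1 of 6 between the treatments (MBL2).

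In a fit over every probe set 6, 4 and 3 members were called after SPTLC123 siRNA, after DEGS1 siRNA and between the treatments. The mean of probe sets left 3 between the treatments, and median centring left 6 after SPTLC123 siRNA. Array weights gave 14 after DEGS1 siRNA, 1 of them higher, with 4263 genes in all, and 3999 genes between the treatments. The actin covariate gave 4 members and 1114 genes after DEGS1 siRNA. Without the 3 arrays of weak 5′ signal 6, 1 and 1 members were called, and 259 and 281 genes in the comparisons with DEGS1, where fewer samples remain. The cause of each shift was not tested.

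Leaving out 1 array at a time gave 5 to 10 members and 1178 to 2381 genes after SPTLC123 siRNA, 4 to 14 members and 801 to 3614 genes after DEGS1 siRNA, and 3 to 6 members and 841 to 2911 genes between the treatments. Correlations of the deviations of same-numbered arrays ran from -0.28 to 0.54 with no sign common to all pairs, so the numbers were not taken to pair the samples. With the replicate block 9, 10 and 6 members and 2062, 2168 and 1801 genes were called.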
